A study of Drosophila melanogaster with 15 samples.

Results

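The dpr and DIP genes encode 2 families of neuronal cell-surface proteins of Drosophila melanogaster. Their 32 genes, dpr1 to dpr21 and DIP-alpha to DIP-lambda, were followed here in nuclear RNA of the mushroom body, a brain structure that flies need to learn odours. The members were taken by FlyBase symbol, which gave 21 dpr genes and 11 DIP genes among the 17559 gene IDs counted, and all 32 were abundant enough to be among the 11997 genes tested.

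Dpr proteins (defective proboscis extension response) and DIPs (Dpr-interacting proteins) are immunoglobulin-domain proteins held in the membrane of neurons. A Dpr on one neuron binds particular DIPs on another, and different neuron types carry different sets, so the families act in partner choice, synapse formation and cell survival. In the mushroom body, dpr12 on gamma Kenyon cells and DIP-delta on dopaminergic neurons of the PAM cluster are known to be needed for wiring of the gamma lobe. Bap60, the gene knocked down in the study, encodes part of SWI/SNF, a complex that moves nucleosomes.

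All flies were male and carried UAS-unc84::GFP, a tagged nuclear envelope protein, under R14H06-Gal4, and nuclei were purified by the tag with INTACT, so the cells sampled were those that the driver marks. The same driver expressed an RNAi hairpin, UAS-Bap6032503 for the knockdown or UAS-mCherryRNAi for the control, each from 1 line, so every group carried a hairpin and the tag. Juvenile flies were 0 to 3 hours past eclosion, with 2 knockdown and 3 control libraries, and mature flies were 1 to 5 days old, with 5 knockdown and 5 control libraries. Whether the libraries of a group are separate collections of flies is not stated in the labels, and the p-values cover the spread among these libraries, which may be technical.

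The libraries held 17447070 to 70495790 gene counts, and levels are given as CPM, gene counts scaled to a common library size with TMM. Bap60 was at 5.15 to 11.8 CPM in juvenile controls and 5.03 to 7.63 CPM in juvenile knockdowns, and at 15.6 to 21.7 CPM in mature controls and 7.08 to 14.5 CPM in mature knockdowns. Neither knockdown comparison called it (log2 fold change -0.58, SE 0.33, adjusted p = 0.331 in juvenile flies and -0.63, SE 0.23, adjusted p = 0.719 in mature flies, edgeR). All 14 Kenyon cell markers were above 0 in every library, and their summed level was 14854 to 21547 CPM in juvenile controls, 12786 to 13205 in juvenile knockdowns, 16999.5 to 25411 in mature controls and 18506 to 25242 in mature knockdowns. Markers of other cells were present too: the glial gene repo was at 20.6 to 41.9 CPM and the photoreceptor opsin ninaE at 684 to 7193 CPM over the 15 libraries. In RNA pooled from many nuclei, fewer nuclei of a type and less RNA per nucleus cannot be told apart.

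The counts covered whole gene spans, introns included. Of the 336 protein-coding genes that lie inside an intron of 1 other gene on the same strand, 336 were at 0 in all 15 libraries, and of 780 on the opposite strand 777 were, against 209 of 7395 genes that overlap no other gene. The members are long genes by this measure, with a median span of 32.5 kb, from 3.74 kb for dpr19 to 379 kb for DIP-lambda, against a median of 2.36 kb over the tested genes with a position. Of the 32 members 18 (56.2%) spanned over 20 kb, against 963 of 11779 tested genes (8.18%). A level per length below is therefore CPM per kb of the gene's span that no other counted gene overlaps, which was the whole span for 13 members, 83.2% or more for the others but one, and 54.4% for DIP-alpha.

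Every member was detected. In mature controls their levels per kb of span ranged widely, with dpr genes at the top and DIP genes at the bottom. dpr14 had the highest mean at 23.8 ± 3.28 CPM per kb (SD, n = 5), followed by dpr9 at 20.3 ± 3.4, dpr12 at 19.7 ± 3.75, dpr20 at 16.4 ± 2.37, dpr19 at 14.5 ± 2.07 and dpr7 at 14.5 ± 2.24. Each of these overlapped its neighbours in the order, as did dpr21 at 11.1 and dpr4 at 10.7 CPM per kb. A gap that no library crossed then followed, from 9.08 in the lowest dpr4 library to 7.44 in the highest dpr10 library. The middle of the order, from dpr10 at 6.5 CPM per kb to DIP-epsilon at 1.65, held 19 members in which each overlapped the next. Below a second gap came DIP-theta at 1.17, DIP-alpha at 0.979 and DIP-eta at 0.9, and below a last one DIP-lambda at 0.387 and DIP-iota at 0.363 CPM per kb. The median tested gene stood at 3.2 CPM per kb in the same libraries, and 19 of the 32 members were above it. DIP-kappa was the highest DIP at 5.31 CPM per kb, ahead of DIP-delta at 4.08 and DIP-gamma at 3.37. This order depends on the divisor, because exons make up 85.4% of the span of dpr14 and 0.6% of that of DIP-lambda. Per kb of exons the highest members were instead dpr21, dpr12, dpr8, dpr9, dpr6 and dpr10.

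**Figure D1:**
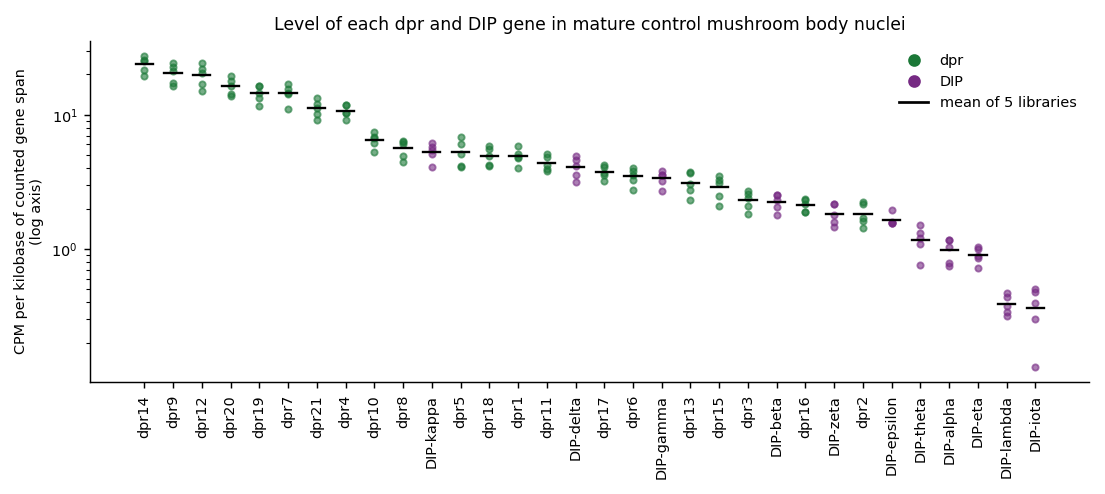
Level of each of the 32 members in the 5 mature control libraries, as CPM per kilobase of counted gene span on a log axis, with points for libraries and a line for the mean, ordered by mean. dpr genes (green) hold the 10 highest places and DIP genes (purple) the 6 lowest, with gaps below dpr4, DIP-epsilon and DIP-eta.

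The 6 highest members by level per kb were followed in every library, in replicate order within each group. dpr14 was at 92.3, 109.9 and 111 CPM in juvenile controls, 70.2 and 73.2 in juvenile knockdowns, 118, 89.3, 125, 98.0 and 116 in mature controls and 138, 102, 129, 109 and 118 in mature knockdowns. The 2 juvenile knockdown libraries were the lowest of the 15 for this gene, and the other 3 groups overlapped. dpr9 was at 334, 539.6 and 501 CPM in juvenile controls, 338 and 336 in juvenile knockdowns, 540.0, 364, 502, 386 and 474 in mature controls and 529, 383, 526, 414 and 435 in mature knockdowns. Its juvenile knockdown libraries lay close to the lowest juvenile control, and the mature groups overlapped. dpr20 was at 80.0, 109.8 and 103 CPM in juvenile controls, 121 and 106 in juvenile knockdowns, 88.3, 62.7, 65.0, 73.7 and 80.8 in mature controls and 116, 95.7, 114, 78.7 and 98.5 in mature knockdowns. Of the 5 mature knockdown libraries 4 were above every mature control for dpr20.

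dpr19, the shortest member, was at 71.6, 74.1 and 67.7 CPM in juvenile controls, 46.2 and 45.1 in juvenile knockdowns, 61.5, 43.3, 61.3, 50.2 and 53.9 in mature controls and 70.9, 42.5, 63.8, 54.3 and 58.5 in mature knockdowns. Both juvenile knockdowns and all 5 mature controls lay below the 3 juvenile controls. dpr7, which lies on the small chromosome 4, was at 88.9, 125 and 122 CPM in juvenile controls, 106 and 108 in juvenile knockdowns, 90.6, 68.5, 96.8, 88.5 and 106 in mature controls and 112, 85.5, 122, 102 and 103 in mature knockdowns. For dpr7 the hairpins overlapped within each age, and the ages overlapped within each hairpin.

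dpr12 was at 941, 1334 and 1164 CPM in juvenile controls, 988 and 1032 in juvenile knockdowns, 1361, 845, 1232, 944 and 1151 in mature controls and 1450.4, 954, 1335, 1085 and 1117 in mature knockdowns. The 4 groups overlapped, and the mature libraries ranged as widely as the juvenile ones. In CPM without division by length, dpr12 and dpr21 were the most abundant members: dpr21 had a mean of 1388 ± 207 CPM in mature controls (SD, n = 5) and dpr12 one of 1107 ± 210.4. Some libraries stood low or high in their group for many members, and the share over all tested genes is not given here. Mature control 2 was the lowest of the 5 for 16 of the 32 members and mature control 5 the highest for 19. Mature knockdown 2 was the lowest for 17 and mature knockdown 3 the highest for 20. The dpr and DIP genes did not always go together. Juvenile control 1 was the lowest of its group for 13 dpr genes and the highest for 6 DIP genes. Mature knockdown 1 was the highest for 7 dpr genes and the lowest for 8 DIP genes. Mature control 2 also had the lowest summed Kenyon cell markers of its group, 16999.5 CPM, and the highest summed photoreceptor markers, 9633 CPM, and their part in the members' values was not tested.

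Between eclosion and maturity, members of both families were called lower in controls and none was called higher. Of the 32 members 14 were called lower in mature than in juvenile controls and 0 higher, against 9.87% lower and 12.2% higher of all 11997 tested genes (edgeR's quasi-likelihood test with Benjamini-Hochberg adjustment over all tested genes, called at an adjusted p under 0.05). The 14 were 8 of 21 dpr genes and 6 of 11 DIP genes. The median log2 fold change was -0.39 over the members and -0.06 over all tested genes. For 16 members every mature control lay below every juvenile control, where 10.9% of tested genes did so. The count of calls was 5 with limma-voom (dpr16, dpr17, DIP-epsilon, DIP-eta and DIP-theta), 8 without mature control 3 and 9 without juvenile control 2.

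The same comparison in the knockdown flies uses other libraries. There 14 members were called lower, against 16.4% of tested genes, and 1 higher, dpr14, against 17.8%, and without juvenile knockdown 1 there were 7 lower and 1 higher. For 15 members every mature knockdown lay below both juvenile ones and for 3 above, where 26.9% and 24.5% of tested genes did so. The median was -0.24 over the members and -0.07 over all tested genes. Members lower in both hairpins numbered 12, which is 85.7% of either list of 14: dpr1, dpr2, dpr3, dpr11, dpr13, dpr16, DIP-beta, DIP-gamma, DIP-delta, DIP-epsilon, DIP-eta and DIP-theta. Of all genes called lower, 819 were shared, 69.2% of the 1184 in controls and 41.6% of the 1968 in knockdowns. dpr17 and dpr18 were called lower in controls alone and DIP-iota and DIP-lambda in knockdowns alone, and no member's difference between the hairpins passed the test that is given with the knockdown results.

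DIP-epsilon, DIP-eta and DIP-theta had the largest decreases in controls. DIP-epsilon was at 109, 99.0 and 77.5 CPM in juvenile controls and 43.5, 44.3, 43.9, 54.7 and 43.5 in mature controls, and at 80.6 and 107 in juvenile knockdowns and 37.9, 48.5, 51.3, 53.1 and 50.2 in mature knockdowns. Every juvenile library was above every mature one. The log2 fold change was -1.05 (SE 0.14, adjusted p = 5.34e-05) in controls and -0.96 (SE 0.16, adjusted p = 0.000243) in knockdowns.

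DIP-eta was at 46.4, 31.4 and 19.3 CPM in juvenile controls and 13.6, 14, 11.4, 16.3 and 15.8 in mature controls, and at 33.9 and 36.6 in juvenile knockdowns and 14.4, 18.3, 19.5, 21.2 and 19.8 in mature knockdowns. The ages did not overlap within either hairpin, though juvenile control 3 came near the mature levels. In controls it fell by 1.19 log2 units (SE 0.21, adjusted p = 0.00051) and by 0.92 in knockdowns (SE 0.23, adjusted p = 0.00594). DIP-theta, which lies 8.3 kb from DIP-eta on chromosome arm 2L on the same strand, was at 64.8, 74.2 and 56.2 CPM in juvenile controls and 33.3, 36.7, 23.4, 46.1 and 40.1 in mature controls, and at 83.9 and 99.2 in juvenile knockdowns and 35.0, 35.8, 39.6, 39.6 and 43.7 in mature knockdowns. Again the ages did not overlap. It fell by 0.86 in controls (SE 0.17, adjusted p = 0.00118) and by 1.24 in knockdowns (SE 0.18, adjusted p = 0.000106).

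DIP-gamma, which binds dpr11, dpr15, dpr16 and dpr17, was at 192, 240.0 and 189.8 CPM in juvenile controls and 161, 123, 145, 159.6 and 173 in mature controls, and at 296 and 281 in juvenile knockdowns and 181, 145, 187, 184 and 171 in mature knockdowns. Every juvenile library was above every mature one. It fell by 0.44 in controls (SE 0.12, adjusted p = 0.0133) and by 0.73 in knockdowns (SE 0.14, adjusted p = 0.000628). The call in controls ended without juvenile control 2 (adjusted p = 0.0999) and without mature control 3 (adjusted p = 0.0631).

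dpr11, one of its partners, was at 329, 374 and 347 CPM in juvenile controls and 255, 237, 227, 290.4 and 306 in mature controls, and at 486 and 452 in juvenile knockdowns and 249.7, 249, 324, 298 and 314 in mature knockdowns. No mature library reached a juvenile one. The log2 fold change was -0.41 (SE 0.12, adjusted p = 0.019) in controls and -0.71 (SE 0.13, adjusted p = 0.000741) in knockdowns. The control call ended without juvenile knockdown 1 (adjusted p = 0.0559), juvenile control 2 (0.0814), juvenile control 3 (0.0504) or mature control 3 (0.0999).

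dpr16 and dpr17 share DIP-gamma as a partner with dpr11. dpr16 was at 54.2, 64.4 and 51.7 CPM in juvenile controls and 41.8, 33.4, 33.4, 38.2 and 41.1 in mature controls, and at 69.9 and 70.4 in juvenile knockdowns and 50.8, 42.4, 47.2, 46.7 and 44.7 in mature knockdowns. Its ages did not overlap within either hairpin, and it fell by 0.60 in both, with SE 0.12 and adjusted p = 0.00143 in controls and SE 0.13 and adjusted p = 0.00251 in knockdowns. The knockdown call ended without juvenile knockdown 1 (adjusted p = 0.0571).

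dpr17 was at 89.1, 88.7 and 93.9 CPM in juvenile controls and 60.6, 52.6, 58.3, 67.9 and 69.4 in mature controls, and at 96.2 and 88.7 in juvenile knockdowns and 86.2, 74.6, 89.8, 72.5 and 74.6 in mature knockdowns. The control ages did not overlap and the knockdown ages did. It fell by 0.55 in controls (SE 0.11, adjusted p = 0.00187), and in knockdowns the log2 fold change of -0.22 was not called. dpr15, the remaining DIP-gamma partner and a neighbour of dpr17 at a distance of 27.4 kb on 3R, was not called in either, at -0.11 in controls and -0.23 in knockdowns.

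dpr1, dpr2 and dpr3 fell in both hairpins. dpr1, the founding member, whose loss removes a salt-avoidance response of the proboscis, was at 290.4, 337 and 288 CPM in juvenile controls and 248, 196, 229.9, 235 and 284 in mature controls, and at 399 and 364 in juvenile knockdowns and 233, 236, 277, 233 and 255 in mature knockdowns. The ages did not overlap in either hairpin, but mature control 5 came within a few CPM of the lowest juvenile control. The log2 fold change was -0.35 (SE 0.11, adjusted p = 0.031) in controls and -0.63 (SE 0.13, adjusted p = 0.00125) in knockdowns. Its call in controls ended without any one of juvenile knockdown 1 (adjusted p = 0.0884), juvenile control 2 (0.15), juvenile control 3 (0.0514), mature control 2 (0.0647) and mature control 3 (0.122), and its call in knockdowns ended without juvenile knockdown 1 (0.0733).

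dpr2 was at 112, 137 and 111 CPM in juvenile controls and 72.8, 76.3, 63.9, 96.4 and 101 in mature controls, and at 193 and 181 in juvenile knockdowns and 68.6, 77.0, 105, 94.6 and 99.2 in mature knockdowns. Juvenile libraries were all higher, most clearly in knockdowns. It fell by 0.55 in controls (SE 0.16, adjusted p = 0.0179) and by 1.07 in knockdowns (SE 0.18, adjusted p = 0.000236), and the control call ended without juvenile control 2 (0.0939) or mature control 3 (0.0749).

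dpr3 was at 154, 159.9 and 152 CPM in juvenile controls and 115, 100.4, 88.3, 125 and 129.8 in mature controls, and at 196 and 214 in juvenile knockdowns and 121, 121, 140.2, 126 and 137 in mature knockdowns. All juvenile libraries were above all mature ones. It fell by 0.48 in controls (SE 0.12, adjusted p = 0.00671) and by 0.67 in knockdowns (SE 0.13, adjusted p = 0.00101), and both calls held whichever library was left out.

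DIP-lambda, the longest member, was at 191, 183 and 148 CPM in juvenile controls and 128, 142, 120.4, 167 and 177 in mature controls, and at 283 and 239.8 in juvenile knockdowns and 126, 152, 166, 165 and 175 in mature knockdowns. The ages overlapped in controls and not in knockdowns. It fell by 0.74 in knockdowns (SE 0.16, adjusted p = 0.00163), a call that ended without juvenile knockdown 1 (adjusted p = 0.0756). dpr14 alone was called higher with age, in knockdowns, with a log2 fold change of 0.73 (SE 0.15, adjusted p = 0.0016), where its 5 mature libraries were all above its 2 juvenile ones. That call held whichever library was left out.

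**Figure D2:**
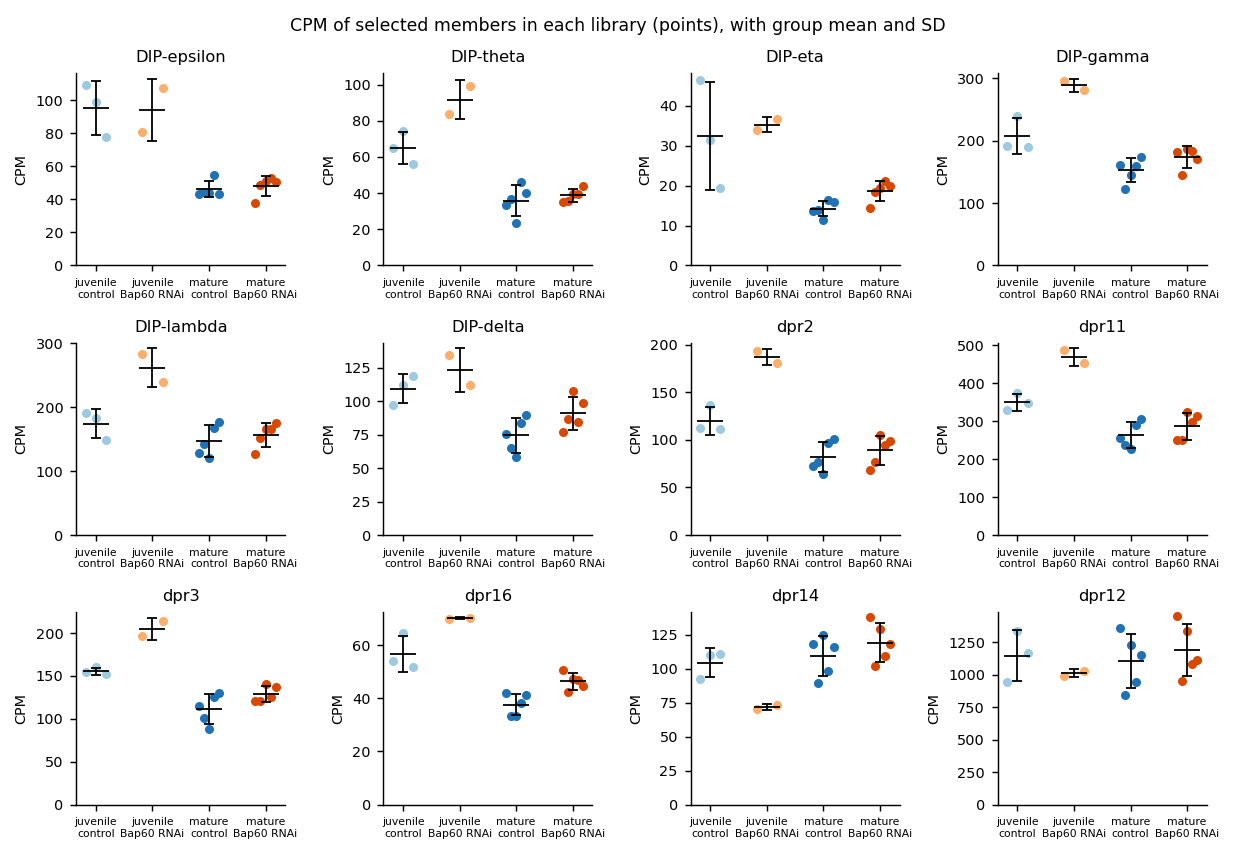
CPM of 12 members in each of the 15 libraries, with points for libraries in replicate order and bars for the group mean and SD, each axis from 0. Within each hairpin, mature libraries lie below juvenile ones for DIP-epsilon, DIP-theta, DIP-eta, DIP-gamma, dpr2, dpr11, dpr3 and dpr16, while dpr12 overlaps across the 4 groups and dpr14 is lowest in the 2 juvenile knockdowns.

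The other members called lower with age were dpr13, dpr18, DIP-beta, DIP-delta and DIP-iota. DIP-beta, a partner of dpr8, dpr9 and dpr21, fell by 0.51 in controls (SE 0.13, adjusted p = 0.0068) and by 0.64 in knockdowns (SE 0.14, adjusted p = 0.00236), the latter lost without juvenile knockdown 1 (0.0866). dpr13 fell by 0.53 in controls (SE 0.15, adjusted p = 0.0145) and by 0.66 in knockdowns (SE 0.16, adjusted p = 0.00485). Its control call ended without juvenile control 2 (0.0514) or mature control 3 (0.0646) and its knockdown call without juvenile knockdown 1 (0.0978). dpr18 fell by 0.57 in controls (SE 0.13, adjusted p = 0.00549). DIP-iota is the least expressed member, at 0.0699 to 4.85 CPM over all libraries, and fell by 2.13 in knockdowns (SE 0.70, adjusted p = 0.026). That call rested on 3.13 and 4.85 CPM in the 2 juvenile libraries and ended without juvenile knockdown 1 (0.0572), juvenile knockdown 2 (0.158), mature knockdown 1 (0.0523) or mature knockdown 5 (0.0529).

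The dpr12 and DIP-delta genes of the gamma lobe pair differed in whether a change with age was called. DIP-delta was at 97.5, 112 and 119 CPM in juvenile controls and 75.5, 65.0, 58.0, 84.1 and 90.1 in mature controls, and at 135 and 112 in juvenile knockdowns and 76.9, 86.9, 108, 84.2 and 98.9 in mature knockdowns. Its ages did not overlap within either hairpin. It fell by 0.56 in controls (SE 0.15, adjusted p = 0.0102) and by 0.44 in knockdowns (SE 0.16, adjusted p = 0.0456). The control call ended without juvenile control 3 (0.0504) or mature control 3 (0.0509), and the knockdown call ended in 10 of the 15 fits that each left out 1 library, with adjusted p from 0.0508 without mature control 1 to 0.485 without juvenile knockdown 1; the others were juvenile knockdown 2, juvenile controls 2 and 3, mature control 3 and mature knockdowns 1, 2, 4 and 5. dpr12 had log2 fold changes of -0.05 (SE 0.16, adjusted p = 0.84, 95% interval -0.39 to 0.29) in controls and 0.24 (SE 0.19, adjusted p = 0.338, 95% interval -0.16 to 0.63) in knockdowns. Per kb, dpr12 stood at 3.41 ± 0.414 times DIP-delta in juvenile controls (SD, n = 3), 2.69 ± 0.431 in juvenile knockdowns (n = 2), 4.97 ± 1.37 in mature controls (n = 5) and 4.33 ± 1.05 in mature knockdowns (n = 5), and these ranges overlapped between ages in controls. In knockdowns they did not, at 2.38 to 2.99 in juvenile and 3.58 to 6.15 in mature libraries.

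Other binding pairs were compared the same way, with ratios given for some of them. DIP-alpha, which in other circuits binds dpr6 and dpr10 and supports neuron survival, had fitted changes with age of 0.41 in controls and 0.42 in knockdowns, neither called. Its control change was called without juvenile control 1 (0.57, adjusted p = 0.035) and without mature control 4 (0.50, adjusted p = 0.0325). Its partners dpr6 and dpr10, which lie 8.1 kb apart on 3L on opposite strands, were at -0.29 and -0.26 in controls, also not called. The ratio of dpr6 to DIP-alpha per kb was 4.17 to 7.03 in juvenile controls and 3.08 to 4.4 in mature controls. Among the partners of DIP-beta, dpr8, dpr9 and dpr21 had log2 fold changes of -0.16, -0.02 and 0.24 in controls and none was called, while DIP-beta itself fell. The ratio of dpr21 to DIP-beta per kb was 2.18 to 3.57 in juvenile controls and 4.02 to 6.32 in mature controls, which did not overlap. Those of dpr8 (1.41 to 2.28 and 1.97 to 3.53) and dpr9 (4.43 to 7.61 and 6.91 to 12.7) to DIP-beta did overlap. In knockdowns the ages overlapped for none of these ratios to DIP-beta. Nor did they for dpr6 and dpr10 to DIP-alpha or for dpr15, dpr16 and dpr17 to DIP-gamma. Among the pairs compared, only dpr11 to DIP-gamma overlapped there, at 1.21 to 1.24 in juvenile and 1.04 to 1.39 in mature knockdowns. Single-gene levels separated often too, with 26.9% of tested genes all lower and 24.5% all higher in mature knockdowns. A share over other gene pairs is not given here. The ratio of dpr11 to DIP-gamma, both of which fell, was 1.28 ± 0.103 in juvenile controls (SD, n = 3) and 1.31 ± 0.115 in mature controls (n = 5).

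Summed over each family, the dpr genes held 6442 ± 1022 CPM in juvenile controls (SD, n = 3), 6840.0 ± 25.5 in juvenile knockdowns (n = 2), 5916 ± 785 in mature controls (n = 5) and 6471 ± 743 in mature knockdowns (n = 5). Both juvenile knockdowns, at 6822 and 6858 CPM, lay above the highest mature control at 6651 CPM, and the other pairs of groups overlapped. The DIP genes held 979 to 1139 CPM in juvenile controls, 1289 to 1343 in juvenile knockdowns, 712 to 948 in mature controls and 804 to 1012 in mature knockdowns. Within each hairpin the ages did not overlap. Both juvenile knockdowns also lay above every juvenile control, and the mature hairpins overlapped. The 16 members called lower in neither hairpin were dpr4 to dpr10, dpr12, dpr14, dpr15, dpr19, dpr20, dpr21, DIP-alpha, DIP-zeta and DIP-kappa. Of these, dpr4, dpr5, dpr7, dpr19 and dpr20 were called lower in controls when 1 library was left out, dpr4 (adjusted p = 0.035), dpr7 (0.0395) and dpr20 (0.0277) without juvenile control 1, dpr5 (0.0365), dpr19 (0.0483) and dpr20 (0.0328) without mature control 1, and dpr19 without mature knockdown 1 (0.0484) or 2 (0.036).

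**Figure D3:**
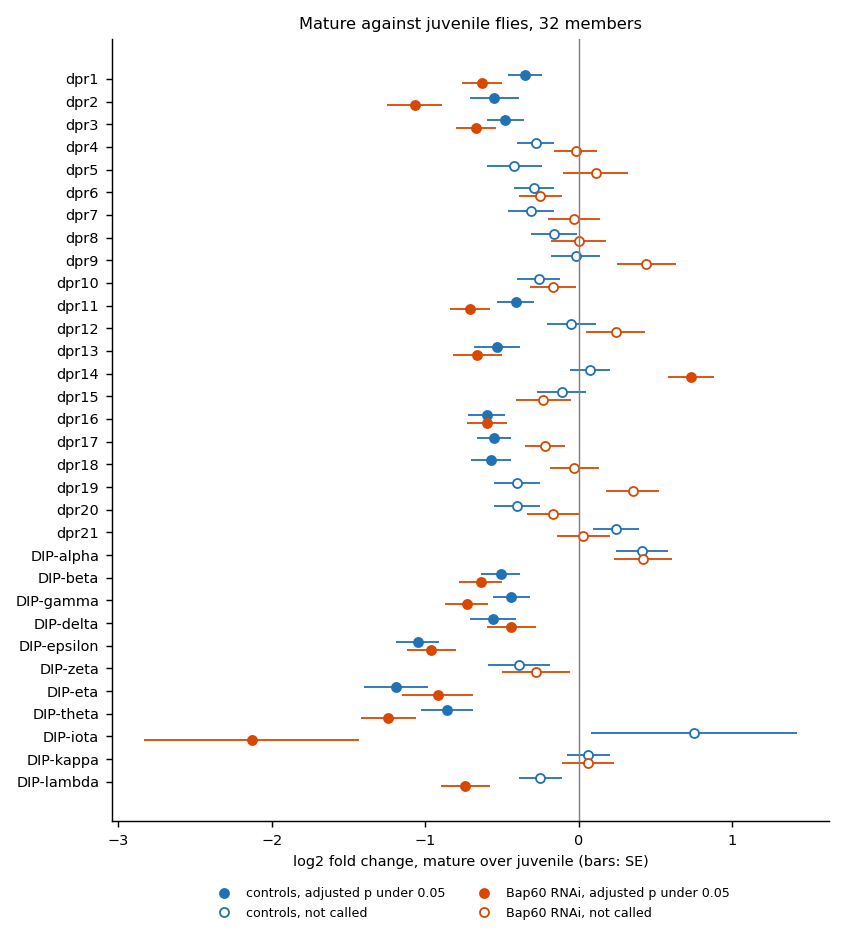
Log2 fold change, mature over juvenile, of the 32 members in controls (blue) and Bap60 knockdowns (orange), with bars for the SE and filled points for an adjusted p under 0.05. Of the members 14 are filled and below 0 in controls, and 14 below 0 and dpr14 above 0 in knockdowns.

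Most members are long genes, and long genes had their own share of calls with age. Of the 963 tested genes that span over 20 kb, a bound chosen after the data were seen, 29.2% were called lower in mature controls and 40.0% in mature knockdowns, with median log2 fold changes of -0.21 and -0.27. The 18 members above that bound had 9 and 10 calls lower, with medians of -0.32 and -0.63. Among tested genes of 20 kb or less, 8.17% were called lower in controls and 14.3% in knockdowns, with medians of -0.03 and -0.04. The 14 members of that length had 5 and 4 calls lower, with medians of -0.40 and -0.20. Of the 6 members between 10 and 20 kb, 4 were called lower in controls: dpr16, dpr17, DIP-delta and DIP-eta. The median was -0.55 over the 6, where 24.2% of tested genes of that class were called lower with a median of -0.12. In knockdowns 3 of the 6 were called lower, against 30.0%. Members over 40 kb, 12 in all, were nearer to tested genes of their class. Of them 5 were called lower in controls and 6 in knockdowns, against 33.4% and 43.3%. Their medians were -0.27 and -0.44, against -0.22 and -0.31. What part of the members' decrease goes with gene span was not tested.

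Markers of other cells and the counting reference moved with age as well. In controls the summed level of 5 fat body markers was 167 to 227 CPM in juvenile and 2013 to 2756 CPM in mature libraries. That of the other neuron markers, which include dopaminergic, glutamatergic and GABAergic genes, was 3651 to 4231 and 966 to 2327 CPM. Tdc2 was listed at 0 throughout, its whole span being covered by another gene, so its level is not known. In knockdowns the fat body sums were 237 to 281 and 1788 to 3555 CPM and the other neuron sums 1361 to 2724 and 1103 to 1607 CPM. Glial sums were 1180.1 to 1267 CPM in juvenile and 580.3 to 932 CPM in mature controls. The glial genes alrm and moody were listed at 0 throughout for the same reason as Tdc2, so their levels are not known either. The single markers did not all follow these sums. Of the 5 fat body markers, 2 were called higher and 1 lower in controls (median log2 fold change -0.45) and 2 higher and 3 lower in knockdowns (median -1.63). Of the 6 other neuron markers tested, 1 was called higher and 2 lower in controls (median -0.36) and 2 higher and 2 lower in knockdowns (median 0.14). In both hairpins ple and Lim3 were lower and Vmat higher, with ple at -2.48 in controls and -2.84 in knockdowns. Of the 4 glial markers tested, wrapper was called higher and Gs2 lower in controls (median -0.01), and 2 were called higher and 1 lower in knockdowns (median 0.48). The Kenyon cell markers had 2 calls higher and 1 lower of 14 in controls (median 0.14) and 7 higher and 1 lower in knockdowns (median 0.73). The 8 photoreceptor markers had 2 calls higher and 2 lower in controls (median 0.24) and 5 higher and 0 lower in knockdowns (median 1.16). The count files of the 10 mature libraries have a row for the UNC84 tag, and those of the 5 juvenile libraries have none, so the ages also differ in how the files were made, and age and that difference cannot be told apart. The part of these in the members' decrease was not tested.

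**Figure D4:**
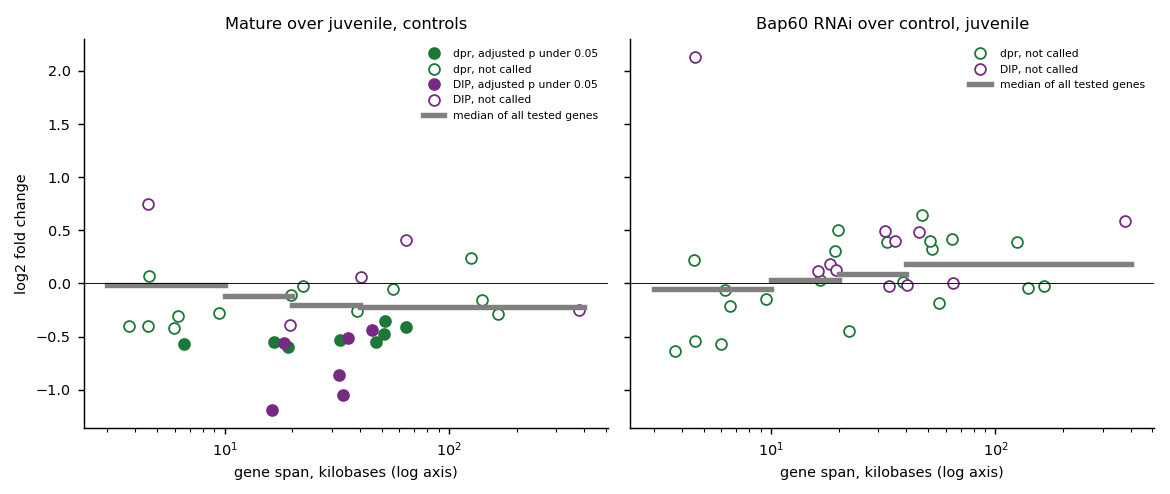
Log2 fold change of the 32 members against gene span in kilobases (log axis), for age in controls (left) and the knockdown in juvenile flies (right), with grey bars for the median of all tested genes up to 10, to 20, to 40 and over 40 kb. The grey medians go from -0.01 to -0.22 with span on the left and from -0.05 to 0.18 on the right. Filled points on the left are the members called lower.

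Bap60 knockdown gave 0 called members in juvenile flies by edgeR (7 by DESeq2), against 1.54% called higher and 3.79% called lower of all tested genes. At an unadjusted p under 0.05, 12 members were higher and 4 lower, where 8.59% and 13.2% of all tested genes were. The median log2 fold change was 0.13 over the members and -0.02 over all tested genes. In 13 members both knockdown libraries lay above all 3 controls and in 4 below them, where 14.8% and 15.2% of tested genes did so. This comparison shares its juvenile control libraries with the age comparison in controls and its knockdown libraries with that in knockdowns, so the values are not independent of those above.

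The smallest adjusted p-values belonged to 3 members with higher and 2 with lower levels. DIP-lambda, at 148 to 191 CPM in juvenile controls and 239.8 and 283 in knockdowns, had a log2 fold change of 0.59 (SE 0.17, adjusted p = 0.0552, 95% interval 0.22 to 0.95). dpr2, at 111 to 137 and at 181 and 193 CPM, had one of 0.64 (SE 0.20, adjusted p = 0.0657, interval 0.22 to 1.05). DIP-gamma, at 189.8 to 240.0 and at 281 and 296 CPM, had one of 0.48 (SE 0.15, adjusted p = 0.0716, interval 0.16 to 0.79). Knockdown libraries were above controls for all 3. dpr19 at -0.64 (SE 0.19, adjusted p = 0.0558, interval -1.04 to -0.24) and dpr14 at -0.54 (SE 0.16, adjusted p = 0.0602, interval -0.88 to -0.20) had their knockdown libraries below all controls.

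These 5 members stood close to the threshold, and their calls depended on the method. DESeq2 called them and also dpr3 and dpr11, 7 members in all, of which 5 were higher and 2 lower, and RLE or upper-quartile scaling called dpr2, DIP-gamma and DIP-lambda. Under edgeR, leaving out a library gave 0 to 3 calls. dpr2 was called without mature knockdown 1 (adjusted p = 0.0486), DIP-gamma without juvenile control 2 (0.047), and DIP-lambda without juvenile control 1 (0.0341) or mature knockdown 1 (0.0412). dpr14 was called without juvenile control 1 (0.0456) or mature control 2 (0.0495), and dpr19 without mature control 1 (0.0488), mature control 2 (0.0496), mature knockdown 1 (0.0427) or mature knockdown 2 (0.0337).

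Fitted changes in juvenile knockdowns were also read by length. The 12 members over 40 kb had a median log2 fold change of 0.36 and the 8 of up to 10 kb one of -0.18, where all tested genes of those classes had medians of 0.18 and -0.05. Both directions occurred in both classes. Over 40 kb, dpr1, dpr2, dpr3, dpr11, dpr21, DIP-gamma and DIP-lambda were above 0, and dpr6, dpr8, dpr12, DIP-alpha and DIP-kappa were at or below it. Of up to 10 kb, dpr4, dpr5, dpr7, dpr14, dpr18 and dpr19 were below 0, and dpr20 (0.22) and DIP-iota (2.13) were above it. What part of these changes goes with gene span was not tested. Beside this, 4 of the 14 Kenyon cell markers were called lower in juvenile knockdowns, sNPF by -1.15 (SE 0.22, adjusted p = 0.00743), prt, Pka-C1 and 14-3-3zeta. The summed muscle markers were 4753 to 6339 CPM in juvenile controls and 8923 to 10783 in knockdowns, and the other neuron markers 3651 to 4231 and 1361 to 2724 CPM. Of the single genes, 0 of the 5 muscle and 0 of the 6 other neuron markers tested were called, with medians of 0.68 and -0.20. Their part in the members' differences was not tested.

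In mature flies, knockdown again gave no called member by edgeR, where 7 of 11997 tested genes (0.0583%) were called. At an unadjusted p under 0.05, 8 members were higher and 0 lower, where 2.22% of tested genes were higher and 3.56% lower, and DESeq2 called 1 member, dpr17. The median was 0.12 over the members and -0.04 over all tested genes. The fitted change was above 0 for 29 of the 32, and the share of all tested genes above 0 is not given here. The 18 members over 20 kb had a median of 0.11, where tested genes of that length had 0.08. For the 14 members of 20 kb or less it was 0.27, where tested genes had -0.05. What part of this goes with gene span was not tested. dpr17, at 52.6 to 69.4 CPM in the 5 controls and 72.5 to 89.8 in the 5 knockdowns, did not overlap between the groups, and its log2 fold change was 0.37 (SE 0.10, adjusted p = 0.367, 95% interval 0.16 to 0.58). dpr16, at 33.4 to 41.8 and 42.4 to 50.8 CPM, did not overlap either, at 0.30 (SE 0.10, adjusted p = 0.711, interval 0.09 to 0.52). They were the 2 members whose mature knockdown libraries all lay above the controls, where 0.725% of tested genes did so. dpr20 had the largest fitted increase, 0.44 (SE 0.13, adjusted p = 0.432, interval 0.17 to 0.71). For dpr12 the difference was 0.10 (interval -0.19 to 0.40) and for DIP-delta 0.29 (interval 0.02 to 0.56). Leaving out DIP-iota, the 95% intervals of the other 31 members lay between -0.37 and 0.79 log2 units in mature flies and between -1.05 and 1.05 in juvenile flies.

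**Figure D5:**
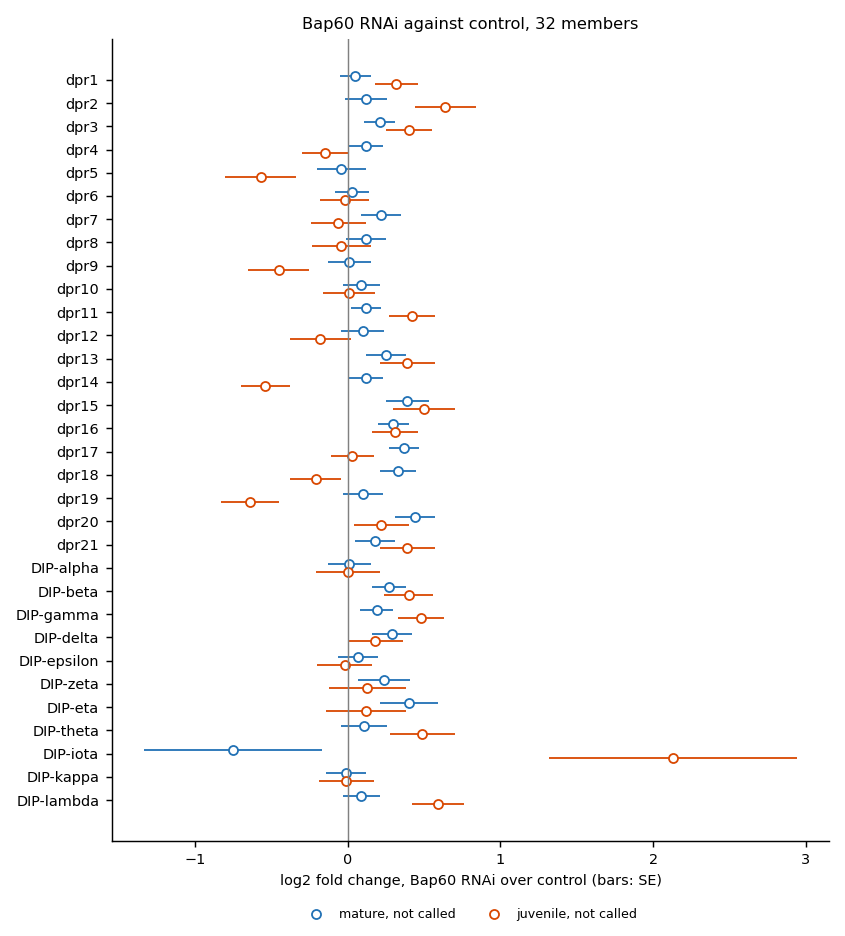
Log2 fold change, Bap60 knockdown over control, of the 32 members in mature (blue) and juvenile (orange) flies, with bars for the SE. All points are open because no member was called by edgeR at either age. In mature flies 29 of the 32 lie above 0, and the share over all tested genes is not given.

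The effect of the knockdown was not called different between the ages for any member, where 1.55% of all tested genes were. At an unadjusted p under 0.05, 3 members were higher in the mature effect (dpr14, dpr18 and dpr19) and 3 lower (dpr2, DIP-iota and DIP-lambda), where 9.6% and 6.69% of all tested genes were. dpr14 had the smallest adjusted p, with a difference of 0.67 log2 units (SE 0.20, adjusted p = 0.098, 95% interval 0.25 to 1.08), and DESeq2 called it as its 1 member. dpr19 followed with 0.74 (SE 0.23, adjusted p = 0.11, interval 0.26 to 1.22). The same contrast is the difference between the age changes of the 2 hairpins, so it also covers dpr17, dpr18 and DIP-lambda, which were called with age in one hairpin alone: their differences were 0.34 (adjusted p = 0.362), 0.54 (0.196) and -0.49 (0.249).

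Genes of related function gave a frame for the age result. Among the immunoglobulin relatives, wrapper, a glial adhesion gene, rose with age by 1.41 in controls (SE 0.30, adjusted p = 0.00253), while klg and Lac fell by 0.40 (adjusted p = 0.0106) and 0.48 (adjusted p = 0.0183). Ama, the remaining one of 4 tested, was not called, and cDIP, a secreted partner of several Dprs and DIPs, was listed at 0 in all libraries, its whole span being covered by another gene. Of 37 other neuronal surface recognition genes tested, 13 were called lower and 0 higher in controls with a median of -0.24. In knockdowns 17 were called lower and 2 higher with a median of -0.18. Examples are Ten-m, a teneurin that matches synaptic partners, at -0.72 (SE 0.10, adjusted p = 5.05e-05) and Fas3, a homophilic adhesion protein, at -0.77 (SE 0.13, adjusted p = 0.000369) in controls. In juvenile knockdowns 3 of the 37 were called, all lower: kek4 at -0.99 (SE 0.17, adjusted p = 0.00394), kek1 and trn. Of 6 genes of BMP signalling, which DIP-gamma and dpr11 are known to affect at the neuromuscular junction, Mad and tkv fell with age in both hairpins, Mad by 0.34 (adjusted p = 0.0338) in controls, and none was called in either knockdown comparison.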

How the data were processed

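The authors deposited raw read counts per gene, 1 file per library, aligned with STAR 2.5.3a and counted with HTSeq 0.7.1 on BDGP6, per the submitters' processing notes. How strand and overlaps were treated is not given in the sources used here. Names and spans came from Ensembl release 115 (BDGP6.54), which gave a symbol to 17253 of 17559 IDs. Reads outside genes (1.12% to 2.84%), ambiguous reads (7.08% to 7.75%) and the tag entry stayed out.

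Counts were fitted in R 4.3.3 with edgeR 4.0.16: filterByExpr (minimum count 10, minimum total 15), TMM scaling, 1 mean per group over all 15 libraries, robust quasi-likelihood F-tests and Benjamini-Hochberg adjustment. An adjusted p without a named tool comes from this fit. SE is the size of the log2 fold change over the root of F, and 95% intervals use its total degrees of freedom. All groups shared 1 estimate of spread per gene. Fitted by age, the common coefficient of variation between libraries was 0.863 in juvenile and 0.251 in mature libraries. The SEs and intervals therefore do not follow the spread of each age. The fit was also run on simulated counts. These had 1 spread per gene for all libraries and no age effect, so that run does not cover spread that differs by age. Replicate libraries were not duplicates (lowest chi-square per degree of freedom 15.8). Levels per length were to use exons, and gene span replaced them after genes inside introns were seen at 0.

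Full values are given for the 12 members with the smallest adjusted p, the 6 highest per kb, dpr12 and DIP-delta. Members, lists and tests were chosen with earlier results of these data known. Alternatives were DESeq2 1.42.0, limma-voom 3.58.1 with sample weights, other scalings, no filter, a replicate block, omitting each library, and fitting only the compared groups.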

Additional observations from a re-analysis of the deposited data

Results flagged for a closer look

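In the 64 member-by-group sets of 5 mature libraries, 2 had 1 library far from the other 4 by Dixon's test, which chance alone flags in about 1 of 20 sets. dpr5 was at 41.5 CPM in mature knockdown 1, where the other 4 libraries were at 26.7 to 29.1 CPM. DIP-epsilon was at 54.7 CPM in mature control 4, where the other 4 were at 43.5 to 44.3 CPM.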

How the results depend on the processing

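The number of members called in the juvenile knockdown comparison was 0 with edgeR, limma-voom, no filter and the replicate block, 7 with DESeq2, 3 with RLE scaling, 3 with upper-quartile scaling and 2 in a fit on the compared groups alone, and 0 to 3 with 1 library left out. In mature flies and for the difference between ages it was 0 under every alternative run but DESeq2, which called 1 in each. Over all tested genes, limma-voom with sample weights called 1 higher and 9 lower in juvenile knockdowns, where edgeR called 185 and 455. In mature knockdowns limma-voom called 44 higher and 70 lower, where edgeR called 2 and 5. In controls the age comparison gave 14 calls, 5 with limma-voom (dpr16, dpr17, DIP-epsilon, DIP-eta and DIP-theta), 19 with DESeq2, 18 with RLE scaling and 8 to 18 with 1 library left out. The lowest, 8, came without mature control 3, and without juvenile control 2 there were 9. In knockdowns it gave 15, then 13 with limma-voom, 17 with DESeq2 and 8 to 15 with 1 library left out, the 8 without juvenile knockdown 1. Whichever library was left out, 8 of the 14 and 8 of the 15 calls were kept. The cause of these moves was not tested. The dpr12 age difference in controls ranged from -0.16 to 0.08 with 1 library left out (adjusted p = 0.53 and 0.768). Deviations of same-numbered libraries from their group means correlated over all tested genes at r = 0.28 for mature number 1 and at -0.03 to 0.07 for the other numbers, and 4 of the 10 mature libraries correlated best with their own number. Not every pair was above 0.1, so the numbers were not taken as pairs, although the mature libraries numbered 2 were the lowest of their group for 16 and 17 members. The replicate block gave 0, 0, 0, 14 and 14 called members in the 5 comparisons and lost DIP-iota in the last.

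The scaling moved the median of all genes by over 0.1 in 3 comparisons: by 0.11 in juvenile knockdowns and -0.11 in the difference between ages with upper-quartile scaling, and by -0.11 in the knockdown age comparison with RLE. The share of all calls that were higher went from 28.9% to 45.6% (RLE) and 57.3% (upper quartile) in juvenile knockdowns, and from 82.3% to 62.7% (upper quartile) in the difference between ages. The median member level in mature controls was 3.91 CPM per kb of span, 4.0 with total-count scaling, 27.5 per kb of exon union and 28.0 per kb of longest transcript, since the divisor is shorter. By exons the 6 highest members were dpr21, dpr12, dpr8, dpr9, dpr6 and dpr10, which share 2 with the order by span. Juvenile comparisons rest on 2 knockdown and 3 control libraries.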
